A study of Mus musculus with 9 samples.

Results

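The genes described here are those of 2 signalling systems first known from the nervous system, the neurotrophins (Bdnf and Ntf3) with their receptors Ngfr, Ntrk2 and Ntrk3, and the GDNF system, with the ligand Gdnf and the receptor chains Ret, Gfra1 and Gfra2. They were taken by gene symbol from the platform annotation, through probe sets that carry 1 symbol only. Of the 9 genes, 8 had such a probe set, 1 each, among 19938 genes measured, and Ntf3 is not analysed here. The arrays hold RNA of cells from mouse back skin at postnatal day 4. 4 arrays were made from skin-derived precursors (SKPs), cultured cells that form spherical colonies and were collected at primary passage (replicates 3, 4, 5 and 6), from mice whose strain the labels do not give. 5 arrays hold cells of Sox2:EGFP mice that were sorted straight from dissociated skin as EGFP-positive and CD34-negative, and are called sorted cells below (replicates 2, 16, 17, 18 and 20). Each array is 1 independent preparation, per the design text. Culture, the sort and the mice differ together between the groups, so their effects cannot be told apart. Within the sorted cells, replicates 2 and 20 differed from replicates 16, 17 and 18. They had lower levels of dermal papilla markers and higher levels of keratinocyte and fibroblast markers, among these Cd34 (values at the end). The main counts and several folds are also given without these 2 arrays.

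Neurotrophins are secreted, dimeric growth factors. Brain-derived neurotrophic factor, the product of Bdnf, binds the receptor tyrosine kinase TrkB (Ntrk2), neurotrophin-3 prefers TrkC (Ntrk3), and all neurotrophins bind the p75 receptor (Ngfr). Glial cell line-derived neurotrophic factor (Gdnf) is held at the cell surface by the lipid-anchored chain GFRalpha1 (Gfra1), and neurturin by GFRalpha2 (Gfra2). Both complexes signal through the receptor tyrosine kinase Ret. In mouse skin these factors are known for the supply of sensory nerves and Schwann cells around the hair follicle, and Ngfr is widely used as a marker of cells of neural crest origin.

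SKPs had lower levels of the neurotrophin receptor genes and of both GFRalpha chains than the sorted cells did, whereas neither ligand gene was lower. Of the 8 genes measured, 6 were lower in SKPs at an adjusted p under 0.05 (limma, Benjamini-Hochberg over all genes), where 16.9% of all 19938 genes were lower. They were Ntrk3, Gfra2, Ntrk2, Gfra1, Ngfr and Ret, and 4 of them differed by 2-fold or more, as did 11.7% of all genes in either direction. 1 gene, Bdnf, was higher, where 20.2% of all genes were, and Gdnf was not called. The median log2 fold change was -1.20 over the 8 genes and 0.07 over all genes tested. The SKP and sorted arrays did not overlap in 6 of the 8 genes, against 34.0% of all genes. Without sorted replicates 2 and 20 the counts were again 6 lower and 1 higher, where 21.1% of all genes were lower and 25.4% higher in that fit (46.5% in either direction). As the genes were chosen with results of these data known, these counts are descriptions.

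**Figure D1:**
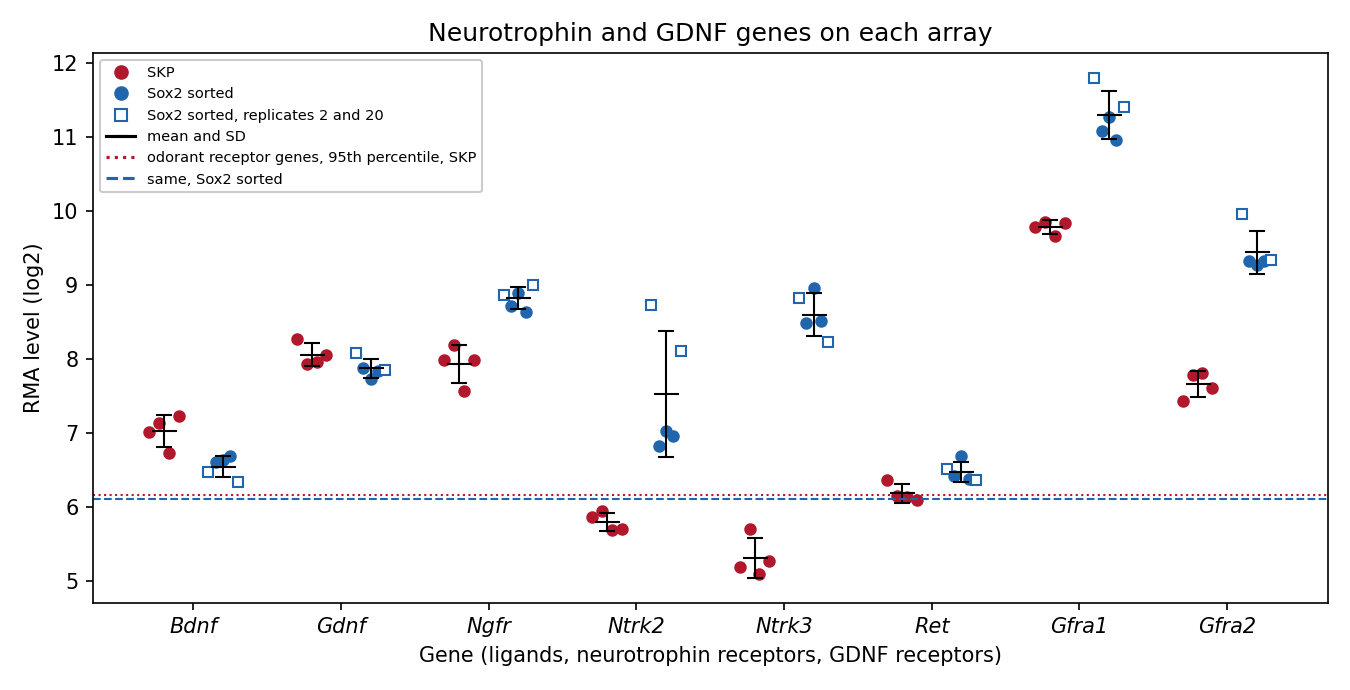
RMA level (log2) of the 8 genes on each array, with SKP arrays in red and sorted arrays in blue (open squares for sorted replicates 2 and 20), the mean and SD in black, and lines at the 95th percentile of the odorant receptor genes. Ntrk2 and Ntrk3 lie under the line on all 4 SKP arrays and above it on all 5 sorted arrays, while Gdnf overlaps between the groups.

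A level is a log2 RMA value, a summary over the probes of a gene after background adjustment and quantile normalization. No detection call was at hand. The 1027 odorant receptor genes, which are not thought to be active in skin, served to show where levels stop being informative. Their mean level in SKPs had a 95th percentile of 6.16, and that in the sorted cells one of 6.10. Values around or under about 6.1 are treated below as not told apart from background.

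Of the 9 genes, 6 have a promoter entry in RefSeq (Bdnf, Ntf3, Ngfr, Ntrk2, Gdnf and Gfra1). The stretches printed here are those of 2 receptors that were lower in SKPs and of the 2 ligands, so that the genes that differed can be set beside the one that was not called. They are the bases before the outermost annotated start of each gene, 250 for Ngfr, Bdnf and Gdnf and 153 for Ntrk2, on GRCm38.p6, 5′ to 3′ on the strand of the gene. Bdnf has 7 annotated starts and Gdnf 2, of which the most upstream was used. Capitals mark 4 motifs sought on both strands, the TATA box TATAAA, the GC box GGGCGG, the cAMP response element core TGACG and the SOX core ACAAT, and no matches of different motifs overlapped.
Ngfr, chr11:95587699-95587948, minus strand: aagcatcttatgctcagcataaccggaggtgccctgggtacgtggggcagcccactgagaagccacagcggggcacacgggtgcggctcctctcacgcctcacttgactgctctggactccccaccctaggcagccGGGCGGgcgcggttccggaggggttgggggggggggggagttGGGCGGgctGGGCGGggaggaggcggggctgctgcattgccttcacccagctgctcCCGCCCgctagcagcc
Ntrk2, chr13:58806319-58806471, plus strand: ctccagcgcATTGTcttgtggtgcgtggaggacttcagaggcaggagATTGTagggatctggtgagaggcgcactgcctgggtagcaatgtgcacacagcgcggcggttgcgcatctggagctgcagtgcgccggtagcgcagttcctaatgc
Bdnf, chr2:109674450-109674699, plus strand: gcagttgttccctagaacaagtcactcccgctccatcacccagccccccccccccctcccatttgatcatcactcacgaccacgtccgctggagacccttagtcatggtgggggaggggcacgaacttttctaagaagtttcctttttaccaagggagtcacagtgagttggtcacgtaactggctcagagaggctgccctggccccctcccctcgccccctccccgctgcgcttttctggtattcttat
Gdnf, chr15:7809798-7810047, plus strand: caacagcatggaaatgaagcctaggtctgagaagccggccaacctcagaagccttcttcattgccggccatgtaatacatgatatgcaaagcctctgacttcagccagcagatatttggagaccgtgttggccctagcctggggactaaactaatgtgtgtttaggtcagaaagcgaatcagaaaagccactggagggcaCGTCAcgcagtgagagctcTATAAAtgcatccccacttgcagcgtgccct
The Ngfr stretch, with a GC content of 70.4%, held 4 GC boxes and none of the other motifs. At least 1 GC box was found in 32.7% of all 32851 promoter windows cut to the same length. The Ntrk2 stretch held 2 SOX cores. At least 1 SOX core was found in 18.9% of windows cut to their first 153 bases, which need not end at an annotated start. The Gdnf stretch held 1 TATA box, beginning 31 bases before the annotated start, and 1 cAMP response element core beginning 50 bases before it. A TATA box occurred in 12.4% and the response element core in 17.8% of windows of that length. None of the 4 motifs was found in the Bdnf stretch at this start. A match of letters is a description of the sequence and not of binding.

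Among the ligands, Bdnf stood at 7.01, 7.13, 6.73 and 7.23 in SKPs, against 6.47, 6.61, 6.63, 6.68 and 6.33 in the sorted cells. Every SKP array was above every sorted array, although the lowest SKP value and the highest sorted value were close. The difference was 0.48 on the log2 scale (SE 0.12, adjusted p = 0.00825), a 1.40-fold higher level in SKPs. The sorted mean of 6.54 was near the odorant receptor line (6.10), about as near as that of Ret (6.47), so this fold is approximate.

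Gdnf stood at 8.27, 7.94, 7.96 and 8.06 in SKPs, against 8.08, 7.88, 7.72, 7.84 and 7.85 in the sorted cells. The groups overlapped, with sorted replicate 2 above 3 of the 4 SKP arrays. The log2 difference was 0.18, with a 95% confidence interval of -0.04 to 0.40 (adjusted p = 0.178). The interval leaves out a change of 2-fold in either direction, and with array weights, which give less to the more variable arrays, the gene was called higher (0.26, adjusted p = 0.0167).

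Among the neurotrophin receptors, Ntrk3 and Ntrk2 were at background level in SKPs and Ngfr was not. Ntrk3, whose product TrkC is the high-affinity receptor of neurotrophin-3, stood at 5.19, 5.70, 5.09 and 5.26 in SKPs, against 8.83, 8.48, 8.95, 8.51 and 8.22 in the sorted cells. All 4 SKP values were under the odorant receptor line and all 5 sorted values well above it, with no array in between. The log2 difference was -3.29 (SE 0.17, adjusted p = 4.93e-07), or 9.76-fold lower in SKPs, and since the SKP level is at background this fold is approximate.

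Ntrk2, the gene of TrkB, stood at 5.86, 5.94, 5.68 and 5.70 in SKPs, against 8.73, 6.82, 7.02, 6.95 and 8.10 in the sorted cells. The SKP arrays were again under the odorant receptor line, while the sorted cells split, with replicates 2 and 20 more than 1 unit above the other 3. The SD was 0.13 in SKPs (n = 4) and 0.85 in the sorted cells (n = 5), the widest of the 8 genes. Ntrk2 was 3.32-fold lower in SKPs (log2 difference -1.73, SE 0.37, adjusted p = 0.00418). Without sorted replicates 2 and 20 it was 2.20-fold lower (-1.14, SE 0.09, adjusted p = 1.35e-05). Both folds are approximate, as the SKP level is at background. Both Trk genes also give rise to truncated receptors that lack the kinase domain, and 1 value per gene does not tell these forms apart.

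Ngfr stood at 7.98, 8.19, 7.57 and 7.98 in SKPs, against 8.86, 8.71, 8.89, 8.64 and 9.01 in the sorted cells. All values were above the odorant receptor line, and the groups were separate. The log2 difference was -0.89 (SE 0.13, adjusted p = 4.03e-04), a smaller difference than those of Ntrk3 and Ntrk2, with a 95% confidence interval of -1.18 to -0.60.

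In the GDNF system the 2 ligand-binding chains were lower in SKPs but were still above the odorant receptor line. Gfra1 stood at 9.79, 9.85, 9.66 and 9.84 in SKPs, against 11.80, 11.09, 11.27, 10.96 and 11.40 in the sorted cells. The SKP values lay close together (SD 0.09, n = 4), all under the lowest sorted value, and sorted replicates 2 and 20 were the highest. The level was 2.87-fold lower in SKPs (log2 difference -1.52, SE 0.15, adjusted p = 3.89e-05). Without sorted replicates 2 and 20 it was 2.50-fold lower.

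Gfra2 stood at 7.43, 7.78, 7.81 and 7.61 in SKPs, against 9.96, 9.32, 9.27, 9.33 and 9.33 in the sorted cells. The groups were separate, and 4 of the 5 sorted arrays were nearly equal, with replicate 2 above them. It was 3.45-fold lower in SKPs (log2 difference -1.79, SE 0.15, adjusted p = 1.30e-05).

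Ret, the signalling chain of the complex, stood at 6.36, 6.14, 6.13 and 6.09 in SKPs, against 6.51, 6.42, 6.69, 6.38 and 6.36 in the sorted cells. SKP replicate 3 overlapped with sorted replicate 20, and all values were near the odorant receptor line. The log2 difference of -0.29 (SE 0.09, adjusted p = 0.0343) passed the threshold. The call was lost in 8 of 19 alternatives, among them centring of each array on its median (adjusted p = 0.0895) and leaving out any 1 of 6 arrays (SKP replicates 4, 5 and 6 and sorted replicates 2, 16 and 17, adjusted p between 0.0538 and 0.0976). As the level is about that of background in both groups, no difference is claimed for Ret.

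In the exact permutation test over all splits of the 9 arrays, which is two-sided and cannot go below p = 0.00794, Bdnf, Ngfr, Ntrk2, Ntrk3, Gfra1 and Gfra2 each gave that smallest value, before any adjustment. By the same exact permutation test Ret gave p = 0.0159 and Gdnf p = 0.103.

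**Figure D2:**
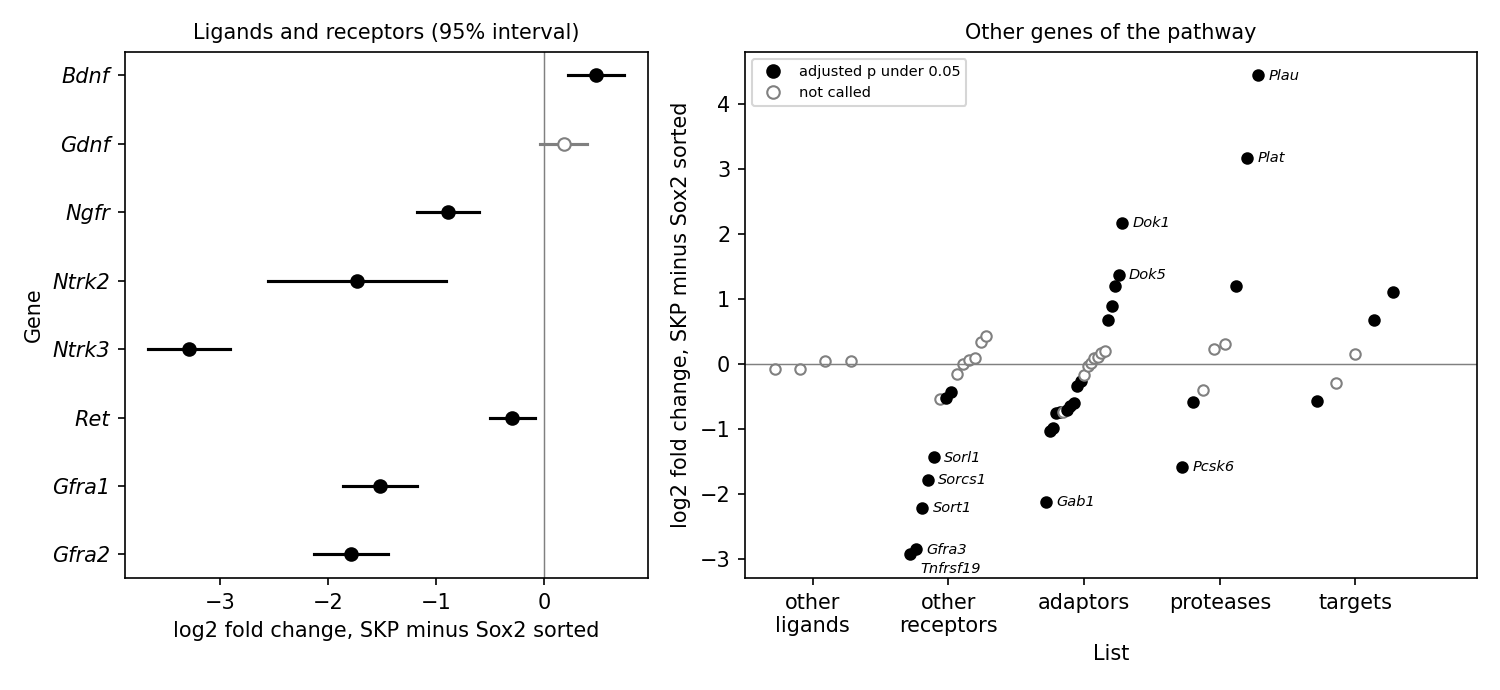
Log2 fold change, SKP minus sorted, of the 8 genes with 95% confidence intervals (left panel) and of 54 other genes of the pathway by list (right panel). Filled points passed an adjusted p of 0.05; the receptor chains other than Ret lie between -0.89 and -3.29, and Plau and Plat lead the genes above 0.

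Several further receptors of the 2 systems were lower in SKPs as well, and the further ligands measured were not called. Of 60 other genes of the pathway, set out by role, 54 were measured. Of these, 10 were higher and 20 lower in SKPs, and their median log2 fold change was -0.07. Of all genes tested, 20.2% were higher and 16.9% lower (37.0% in either direction). The counts of each list below are to be read beside these shares. The 4 other ligands measured, Ntf5 (neurotrophin-4), Artn, Nrtn and Pspn, were all not called by limma, with a median log2 fold change of -0.01, and 0 of them had an unadjusted p under 0.05.

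Of 14 other receptors and co-receptors, 7 were lower in SKPs and 0 higher, with a median log2 fold change of -0.47. At an unadjusted p under 0.05 in limma 1 was higher, Nradd, a relative of p75. Nradd was called higher under median centring (adjusted p = 0.0407) and quantile normalization (adjusted p = 0.0480). Without sorted replicates 2 and 20, 7 were lower and 2 higher, Nradd (log2 difference 0.67, adjusted p = 6.88e-04) and Sorcs2, of the sortilin family (0.65, adjusted p = 5.88e-04). Nradd and Sorcs2 were chosen after their values were seen. Gfra3, the chain that binds artemin, stood at 7.08, 6.86, 6.76 and 6.70 in SKPs, against 10.78, 8.98, 9.40, 8.79 and 10.56 in the sorted cells. As with Ntrk2, sorted replicates 2 and 20 were the highest and the groups did not overlap. Gfra3 was 7.21-fold lower in SKPs (adjusted p = 3.24e-04), or 4.61-fold lower without those replicates.

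Tnfrsf19, which encodes a receptor of the same TNF receptor superfamily as p75, was 7.59-fold lower (adjusted p = 2.22e-05). Sort1, the gene of sortilin, which joins p75 in a receptor for uncleaved neurotrophin precursors, stood at 7.04, 6.86, 7.22 and 7.18 in SKPs, against 9.28, 9.19, 9.42, 9.06 and 9.47 in the sorted cells. The 2 groups were more than 1 unit apart, and Sort1 was 4.62-fold lower (adjusted p = 3.94e-07). Sorcs1, of the sortilin family, was 3.44-fold lower (adjusted p = 1.93e-04), or 2.73-fold lower without sorted replicates 2 and 20. Its SKP mean was 5.63, under the odorant receptor line, so both folds are approximate.

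The adaptors that carry the signal inside the cell moved both ways. Of 23 measured, 5 were higher and 10 lower in SKPs, with a median log2 fold change of -0.17. Gab1, a docking protein of receptor tyrosine kinases, averaged 8.26 ± 0.24 in SKPs (SD, n = 4) and 10.38 ± 0.27 in the sorted cells (SD, n = 5), a 4.34-fold lower level. Sos1, an activator of Ras, was 2.04-fold lower, Traf6, which binds p75, 1.98-fold lower and Grb7, which binds Ret, 1.69-fold lower. Without sorted replicates 2 and 20 Traf6 was 1.52-fold lower. Dok1, a docking protein, averaged 9.59 ± 0.08 in SKPs and 7.42 ± 0.10 in the sorted cells, a 4.50-fold higher level. Dok5, a substrate of Ret, was 2.59-fold higher, Shc2 2.30-fold and Shc1 1.86-fold higher. The sorted mean of Shc2 was 5.81, under the odorant receptor line, so its fold is approximate. The SKP mean of Grb7 (6.17) and the sorted mean of Dok5 (6.34) were near the line, so their folds are approximate too. The adjusted p of these 8 adaptors lay between 4.76e-08 (Dok1) and 0.00864 (Traf6).

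Among 8 genes that process neurotrophins or their receptors, 3 were higher in SKPs and 2 lower, and the median log2 fold change was 0.27. The plasminogen activators Plau and Plat, which make the plasmin that can cleave pro-BDNF, were 21.7-fold (adjusted p = 5.03e-07) and 9.05-fold higher in SKPs (adjusted p = 8.44e-06). Adam17, a protease that sheds the p75 ectodomain, averaged 11.41 ± 0.06 in SKPs and 10.20 ± 0.08 in the sorted cells, or 2.31-fold higher (adjusted p = 1.30e-06). The proprotein convertases Pcsk6 (2.98-fold, adjusted p = 1.41e-04) and Furin (1.49-fold, adjusted p = 0.00917) were lower. Pcsk6 was 2.49-fold lower without sorted replicates 2 and 20.

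Of 5 genes listed as targets, 2 were higher and 1 lower, with a median log2 fold change of 0.15. Etv4 and Etv5, which GDNF and Ret induce in the mouse kidney, were 2.17-fold (adjusted p = 0.00335) and 1.60-fold higher in SKPs (adjusted p = 0.0292). The Etv5 call was lost on leaving out any SKP array or sorted replicate 2 (adjusted p up to 0.0819), and on quantile normalization (adjusted p = 0.0542). Without both sorted replicates 2 and 20 Etv5 was 1.28-fold higher. Arc, which BDNF induces in neurons, was 1.48-fold lower (adjusted p = 0.0203), a call lost without SKP replicate 5 or 6 (adjusted p up to 0.0620).

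The 4 receptor genes that differed by 2-fold or more were set beside all other named genes, by the root mean square difference over the 9 arrays after each gene's own mean was taken off. The nearest to Ntrk3 were Deptor (0.15 on the log2 scale), Id4 (0.18) and Afap1l2 (0.22). Those nearest to Ntrk2 were Dpep1 (0.15), Galnt17 (0.18) and Pcdh20 (0.21). Gas7 (0.11), Mbp (0.13) and Spock1 (0.13) were nearest to Gfra1, and Mbp encodes myelin basic protein of Schwann cells. Coro2b (0.11), Arrdc3 (0.15) and Utrn (0.15) were nearest to Gfra2. With 2 groups this likeness is mostly a like difference between the groups, and it carries no test.

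**Figure D3:**
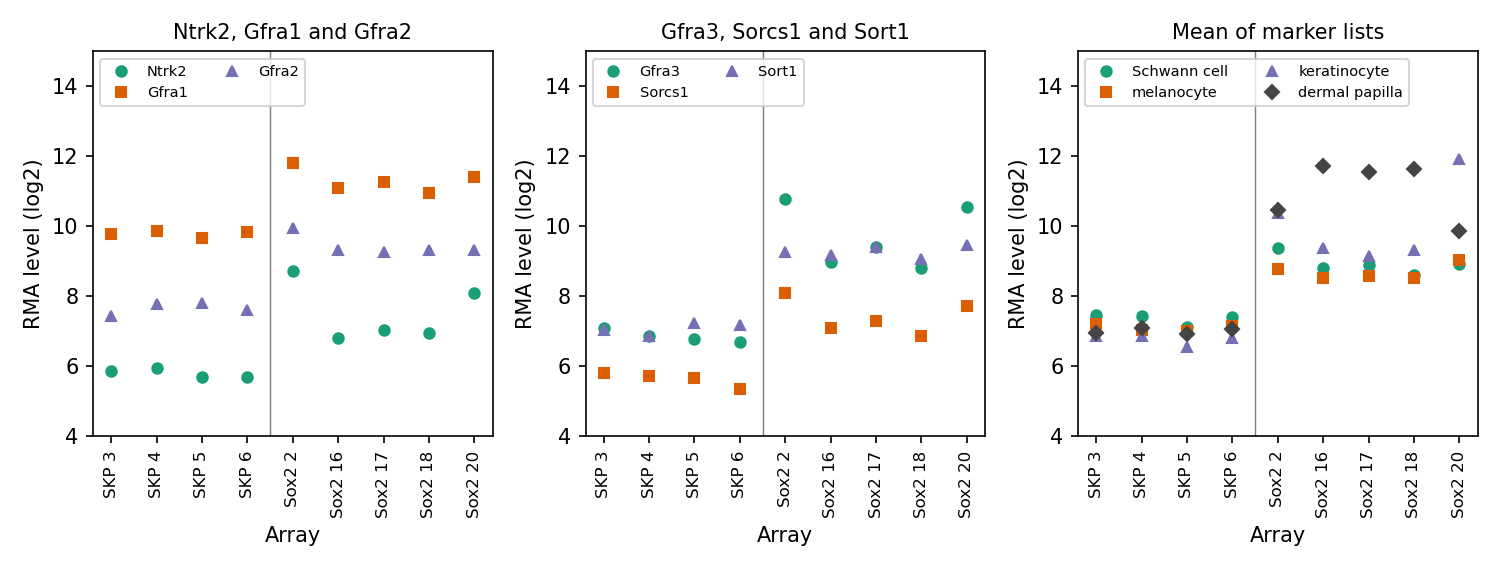
RMA level (log2) by array, with the 4 SKP arrays left of the line and the 5 sorted arrays right of it, for 3 of the receptor genes, for Gfra3, Sorcs1 and Sort1, and for the mean of 4 marker lists. Ntrk2, Gfra3 and the keratinocyte mean are highest on sorted replicates 2 and 20, on which the dermal papilla mean is lowest among sorted arrays.

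Markers of several other cell types differed between the groups too, some lower in SKPs like the receptors and some higher. Over all genes tested, 20.2% were higher in SKPs and 16.9% lower. Of 12 dermal papilla markers, 12 were lower in SKPs. Their mean lay between 6.91 and 7.10 in SKPs, against 11.55 to 11.71 on sorted replicates 16, 17 and 18, 10.47 on sorted replicate 2 and 9.88 on sorted replicate 20. Sox2, on which the sorted cells were selected, averaged 6.16 in SKPs, at the odorant receptor line, and 8.69 in the sorted cells. Of 10 Schwann cell markers measured, 8 were lower and 1 higher, with list means of 7.12 to 7.47 in SKPs and 8.61 to 9.37 in the sorted cells. The higher one was Gap43, which averaged 10.92 in SKPs and 9.13 in the sorted cells (3.47-fold). Gap43 stood at 10.62 and 10.32 on sorted replicates 2 and 20, against 8.22, 8.38 and 8.11 on replicates 16, 17 and 18. In SKPs Cdh19 (6.06) and S100b (6.14) were under the odorant receptor line, and Gfap was under it in both groups (5.67 in SKPs and 5.88 in the sorted cells). Of 8 melanocyte markers, 6 were lower and 1 higher, with list means of 6.99 to 7.22 in SKPs and 8.52 to 9.04 in the sorted cells. The higher one was Mitf, which averaged 9.70 in SKPs and 8.09 in the sorted cells (3.05-fold). Among the lower ones Tyr averaged 4.84 in SKPs, under the line, and 6.64 in the sorted cells. Of 8 keratinocyte markers, 8 were lower, with list means of 6.55 to 6.88 in SKPs, against 9.16 to 9.38 on sorted replicates 16, 17 and 18, 10.38 on sorted replicate 2 and 11.92 on sorted replicate 20. Of 8 neuron markers, 2 were higher (Nefl and Elavl4) and 1 lower (Stmn2), about the share called among all genes. Their list means were 5.81 to 6.02 in SKPs and 6.04 to 6.34 in the sorted cells. Nefl averaged 6.24 in SKPs and 4.96 in the sorted cells, and Stmn2 5.58 and 9.26. Stmn2 stood at 11.01 and 10.66 on sorted replicates 2 and 20, against 7.90, 8.79 and 7.95 on replicates 16, 17 and 18. Elavl4 was under the odorant receptor line in both groups (5.41 and 4.85). Immune markers were higher, 7 of 7, with list means of 7.26 to 8.93 in SKPs and 5.91 to 6.29 in the sorted cells. Fibroblast markers were higher in 5 of 8, with list means of 12.41 to 12.45 in SKPs, against 10.36 to 10.43 on sorted replicates 16, 17 and 18, 11.71 on sorted replicate 2 and 11.58 on sorted replicate 20. Cd34, 1 of these 5, averaged 11.43 in SKPs and 8.64 in the sorted cells. As the sorted cells were selected as CD34-negative, that direction is not independent of the sort. Cd34 stood at 10.19 and 10.27 on sorted replicates 2 and 20, against 7.82, 7.59 and 7.31 on replicates 16, 17 and 18. Of 7 smooth muscle and pericyte markers 6 were lower. The mean of 6 endothelial markers lay between 6.20 and 6.65 in SKPs, against 6.27 to 6.41 on sorted replicates 16, 17 and 18, 7.30 on sorted replicate 2 and 7.79 on sorted replicate 20. Of 6 Merkel cell markers limma called 0, and 0 had an unadjusted p under 0.05. The part of any of these cell types in the receptor differences was not tested, and in such bulk samples fewer cells of a type and less RNA per cell cannot be told apart.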

How the data were processed

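Total RNA was hybridised to Mouse Gene 1.0 ST arrays (Affymetrix), 1 per preparation, and had been extracted with Trizol, per the labels' protocols. The deposited values are log2 RMA levels, 1 per probe set and array, for 35556 probe sets. RMA, Affymetrix Expression Console and limma are named in the submitters' processing notes, and versions, settings and a genome build are not given in the sources used here. RMA quantile-normalizes arrays, so only relative levels can be compared, and depth does not apply: the number of arrays limits the precision. Probe sets were named from the platform annotation, of which 21789 carry 1 symbol, and the brightest probe set on average stood for each of 999 genes that have more than 1.

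All 19938 genes were fitted with limma 3.58.1 in R 4.3.3 (lmFit and eBayes, SKP minus sorted, two-sided), and genes with a Benjamini-Hochberg adjusted p under 0.05 were called. Genes are described as higher or lower only where called in this fit or in an alternative that is named. Nradd is also counted as higher at an unadjusted p, and is marked so. Tested on simulated data for this comparison, with all 19938 genes, the fit called 86% of 50 genes changed by a log2 of 1 and 94% of 50 changed by 2. The genes and lists were chosen with earlier results of these data known. The text names all 9 genes, in each list of pathway genes up to 4 called genes in each direction, and the 3 genes of most similar profile. Some markers were named where they moved with a receptor. Named too are the Schwann cell and melanocyte markers that were higher in SKPs, the called neuron markers, and Cd34. The lists hold other ligands, receptors, adaptors, processing proteases, targets and cell type markers. Alternatives were quantile normalization, median centring, a filter on low values, the mean over probe sets or every probe set on its own, array weights, trend and robust fitting, an adjusted p under 0.01, leaving out arrays, and an exact permutation test. Sequences are RefSeq's (GRCm38.p6). The plots were made in Python 3.11.15 with matplotlib 3.10.9.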

Additional observations from a re-analysis of the deposited data

Results flagged for a closer look

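Among the 16 sets of values of 1 gene in 1 group, a single array stood far from the others in 1. Sorted replicate 2 had Gfra2 at 9.96, and the next sorted array was at 9.33, so that the gap took up most of the range of the group. Chance alone is known to mark about 1 in 20 such sets.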

How the results depend on the processing

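Of 152 recomputed values of the 8 genes, 143 kept their direction and their side of the threshold, 8 lost the call (all for Ret), 1 gained it (Gdnf with array weights) and 0 changed sign. Some settings could not change a sign. Each of the 8 genes had 1 probe set, so both settings on probe sets repeated its main fold. The low-value filter, trend and robust fitting, the stricter threshold and the permutation test kept the main fold and bore on the call only. The number of the 8 genes called was 7 in all arrays and between 6 and 8 over 17 alternatives, and between 6 and 7 on leaving out 1 array at a time. The number of other pathway genes called was 30, between 24 and 40 over the alternatives and between 26 and 32 on leaving out 1 array. The log2 fold change of Ntrk3 ranged from -3.42 to -3.20, of Gfra2 from -1.84 to -1.65, of Gfra1 from -1.61 to -1.32, of Ngfr from -0.98 to -0.77, of Bdnf from 0.39 to 0.58, and of Ntrk2 from -1.91 to -1.14. Without sorted replicates 2 and 20, 14 of the other pathway genes were higher and 20 lower, where 46.5% of all genes were called in that fit, against 37.0% with all arrays. No paired analysis was possible because the 2 groups share no replicate number in the labels. No detection calls were used. Levels near those of odorant receptor genes limit what can be said of Ret, of Bdnf in the sorted cells, and of Ntrk2 and Ntrk3 in SKPs.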
